A study of Schmidtea mediterranea with 5 samples.

Results

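In a planarian series on the loss and return of body pigment, 28 transcripts were lowest in animals that had spent 8 days back in the dark after light exposure. They were selected on their deposited levels in all 5 libraries of the series, given as CPM (reads per 1000000 reads of the library) plus 1. The mean over the 5 libraries had to be at least 1 CPM. Each of the other 4 libraries had to be at least 1.5 times the 8-day library on the CPM + 1 scale. The level in the dark control, over that in light, had to lie between 0.5 and 2. The rule held for 28 of the 21307 transcripts that averaged 1 CPM or more, in a table of 82843 transcripts. These values chose the 28 transcripts, so their low level after 8 days in the dark is a description and carries no test.

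Whole animals of Schmidtea mediterranea, asexual clonal strain CIW4, were sequenced under 5 conditions. Animals were exposed to light for 8 days and collected at once, or were then kept in the dark for 1, 2 or 8 days before collection, and untreated animals kept in the dark were the control. All carried the same strain background, none is labelled with a mutation or a transgene, and the labels give 1 week of starvation before tissue was collected. The series' design text adds that the animals returned to the dark were starved ones. Days in the dark, days since the end of light and any longer time without food cannot be told apart in the 8-day library. Equal amounts of RNA from 3 biological replicates made 1 library per condition, so the spread between animals was not measured and no p-value is given. Library totals were 38447289 to 50045371 reads, and intervals below cover counting error only.

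Planarian body pigment is made by branched cells that lie under the epidermis and hold porphyrin and ommochrome pigments. Prolonged light depletes these cells, and new ones arise from stem cells once animals return to the dark. Porphyrins are intermediates of heme synthesis and sensitise the cells that store them to light. A library of whole animals mixes these cells with gut, muscle, nerve, epidermis and stem cells, so fewer cells of a type and less RNA per cell cannot be told apart. The table pairs transcript numbers with no gene name, so no function is given for any of the 28 transcripts and the marker genes of these cell types could not be examined. A transcript here is an assembled contig, and contigs that share sequence may share reads.

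The set was small next to those that set the dark control apart. Without the limit on the control-to-light ratio, the 8-day dark library was at least 1.5-fold under all 4 others for 31 transcripts and at least 1.5-fold above all 4 for 12. The 1-day library was lowest by that margin for 0 transcripts and highest for 7, and the 2-day library was lowest for 0 and highest for 5. The light library was lowest for 43 and highest for 18. The dark control was lowest for 243 and highest for 376. The 8-day and light libraries thus had more transcripts at the low end than at the high end, and the other 3 libraries fewer.

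The rule joins 4 contrasts, each with its own frequency among all 21307 transcripts. The 8-day dark library was at least 1.5-fold under the light library for 1.07% of them, under the 1-day library for 1.13%, under the 2-day library for 0.526% and under the dark control for 2.70%. All 28 members passed each of these contrasts by the rule itself. Where the dark control was left out of the rule, 68 transcripts were at least 1.5-fold lower at 8 days than in light and at 1 and 2 days. Of the 40 that were not members, 34 had an 8-day level within 1.5-fold of the dark control, and 35 had been at least 1.5-fold higher in light than in the control. Of the 68, 34 thus ended near the control at 8 days, and 31 ended at least 1.5-fold under it. The 31 are the 28 members and 3 others outside the limits on the control-to-light ratio. Most of the 34 must also have been high in light, since 35 of the 40 were, but their exact number was not counted.

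In 23 of the 28 transcripts the smallest drop, from the lowest of the other libraries to the 8-day library, had a 95% counting interval of the ratio of CPM that lay wholly above 1.5-fold. All 28 intervals excluded a ratio of 1. The rule chose the members on this same drop, so both counts describe counting error and are no test of the drop. The 8-day level was a median of 42.2% of the level in light, with a range of 7.77% to 65.0%. Relative to the 1-day and 2-day libraries the median was 46.5% and 46.7%. Relative to the dark control it was 38.6%, with a range of 12.1% to 65.1%.

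**Figure D1:**
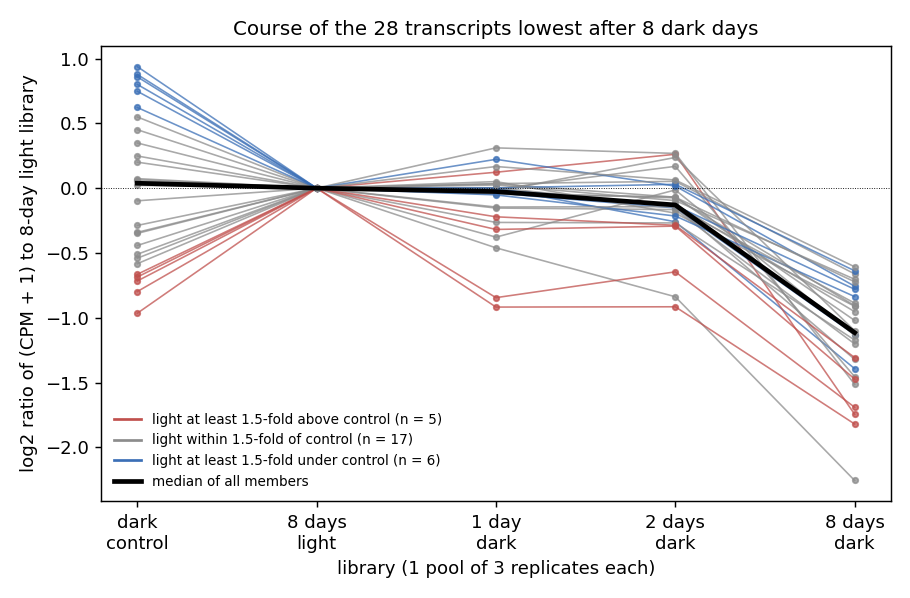
Log2 ratio of (CPM + 1) to the 8-day light library for each of the 28 transcripts (thin lines) and their median (thick line), in the 5 libraries from the dark control to 8 days in the dark. Colours give the relation of light to the dark control: at least 1.5-fold above it in 5 transcripts, within 1.5-fold in 17 and at least 1.5-fold under it in 6; the median is -0.13 at day 2 and -1.11 at day 8, where the rule puts every line at its lowest.

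By level, the 28 transcripts reached from rare to very abundant. Contig lengths are not in the table, so levels compare shares of reads and not numbers of molecules. The median of the mean CPM was 24.4 CPM (order-statistic interval 7.36 to 47.7 CPM), against 8.87 CPM over all 21307 transcripts. With a pseudocount of 0.1 CPM in the rule, 49 transcripts met it and their median was 5.48 CPM, under that of all transcripts. The range was 1.30 to 3188 CPM. When all transcripts were divided by mean CPM into 4 parts of 25% each, 3 members fell in the lowest part, 6 in the next, 8 in the one above and 11 in the highest. A mean of at least 100 CPM was found for 6 members (21.4%), against 7.76% of all transcripts. The added 1 CPM makes a 1.5-fold ratio harder to reach at low levels, so the rule itself favours abundant transcripts.

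**Figure D2:**
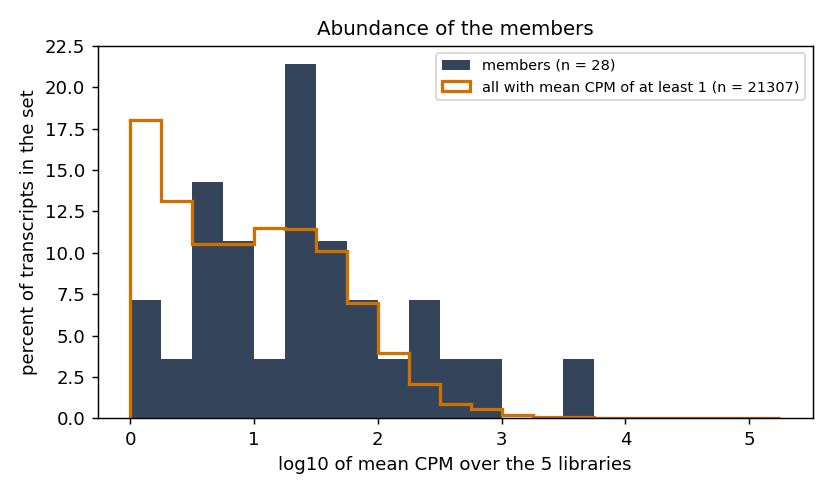
Distribution of log10 of the mean CPM over the 5 libraries, as the percent of transcripts in each bin, for the 28 members (filled) and for all 21307 transcripts averaging 1 CPM or more (outline). The members have a median of 24.4 CPM, against 8.87 CPM over all, and 1 member stands apart near 3188 CPM.

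The levels of the 28 summed to 5711 CPM in the dark control, to 6893 CPM in light, 6096 CPM at 1 day, 5864 CPM at 2 days and 2932 CPM at 8 days in the dark. Of all reads this made up 0.571%, 0.689%, 0.610%, 0.586% and 0.293%. The sum at 8 days was thus 42.5% of that in light and 50.0% of that at 2 days. One transcript, SmedASXL_012836, supplied more than all the others together in light and in the 3 dark-return libraries. Without it the sum was 3003, 2601, 2413, 2345 and 1197 CPM in the same order, and the 8-day sum was 46.0% of that in light and 51.1% of that at 2 days.

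The most abundant pair moved alike. SmedASXL_012836 had 2708 CPM in the dark control, 4293 CPM in light, 3683 CPM at 1 day, 3519 CPM at 2 days and 1735 CPM at 8 days. SmedASXL_013591 had 541 CPM in the dark control, 890 CPM in light, 714 CPM at 1 day, 726 CPM at 2 days and 320 CPM at 8 days. Both were highest in light, were part of the way down by the first day in the dark and ended under the control.

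At 8 days SmedASXL_012836 was 2.47-fold under light (counting interval 2.45 to 2.49) and 1.56-fold under the control (1.55 to 1.57). SmedASXL_013591 was 2.78-fold under light (2.73 to 2.83) and 1.69-fold under the control (1.66 to 1.73). The ratio of their CPM stayed between 4.82 and 5.42 over the 5 libraries.

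On the CPM + 1 scale of the rule, the deepest drops below every other library were those of SmedASXL_005900 and SmedASXL_007931, with means of 4.66 and 30.6 CPM. As ratios of CPM, which the added 1 CPM does not reduce, the deepest were SmedASXL_006360 at 5.67-fold and SmedASXL_053138 at 5.08-fold, with means of 1.30 and 1.62 CPM. SmedASXL_005900 had 5.44 CPM in the dark control, 7.75 CPM in light, 5.36 CPM at 1 day, 3.90 CPM at 2 days and 0.833 CPM at 8 days. SmedASXL_007931 had 53.2 CPM in the dark control, 31.3 CPM in light, 31.3 CPM at 1 day, 26.0 CPM at 2 days and 11.3 CPM at 8 days. SmedASXL_005900 was highest in light and lower at each later time, while SmedASXL_007931 was highest in the control, level from light to 1 day and then lower.

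For SmedASXL_005900 the 8-day level rested on 40 reads, against 298 in light, and was 4.68-fold under the 2-day level (3.31 to 6.75), the lowest of the others. On the CPM + 1 scale of the rule that ratio was 2.67. For SmedASXL_007931, with 542 reads at 8 days and 1299 at 2 days, the drop from day 2 was 2.30-fold (2.08 to 2.55). SmedASXL_006851 was the only other member more than 2-fold under each of the other libraries on the CPM + 1 scale, at 2.08.

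**Figure D3:**
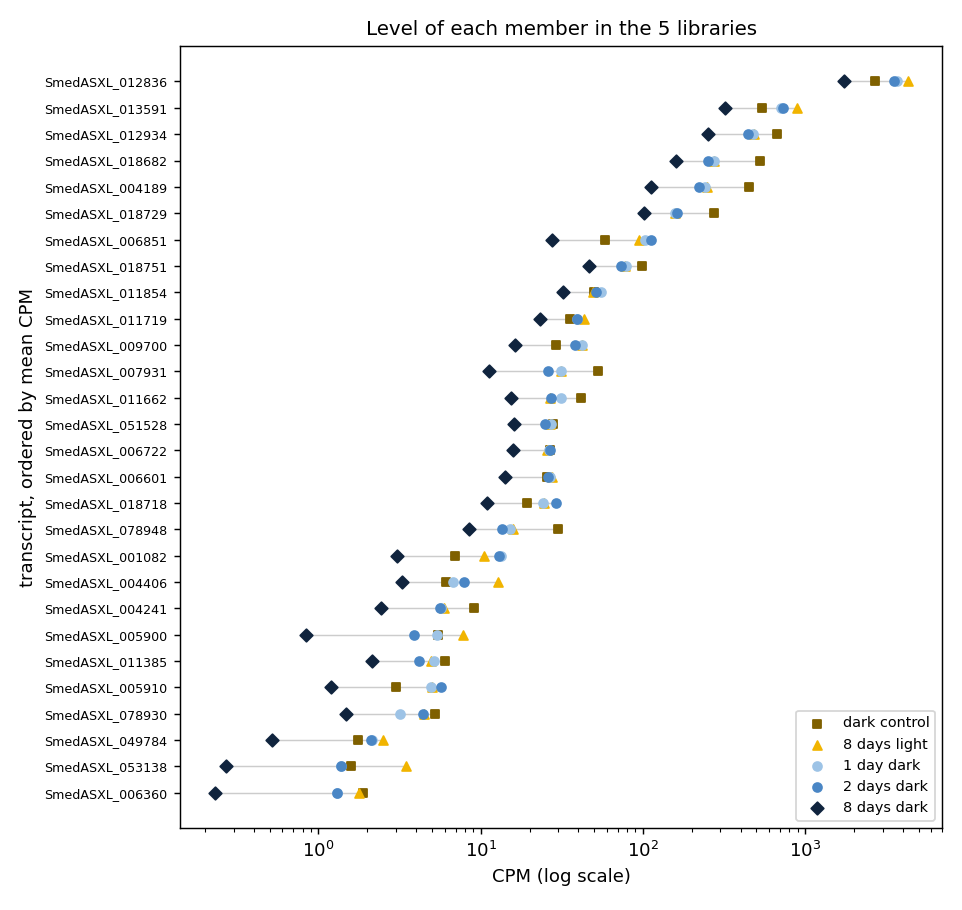
CPM of each of the 28 transcripts in the 5 libraries on a log axis, ordered by mean CPM, with 1 symbol per library and a line over the range; symbols that coincide hide each other. The 8-day dark symbol is leftmost in every row by the rule, and the 1-day and 2-day symbols lie near the light symbol in most rows, with SmedASXL_053138, SmedASXL_004406 and SmedASXL_005900 the members at least 1.5-fold under light by day 2.

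Whether the fall had begun by day 2 was read from the ratio of the 2-day to the light library, which is not itself a term of the rule, although both libraries had to exceed the 8-day one. The median log2 ratio of CPM + 1 from light to 2 days was -0.13 over the 28 (order-statistic interval -0.19 to -0.01), a 1.09-fold lower level, against 0.01 over all transcripts. After 1 day it was -0.03, and after 8 days -1.11. On the log2 scale a median of 13.3% of the drop from light to 8 days was present at 2 days and 2.58% at 1 day. Under 25% of the drop was present at 2 days in 24 members. The rule holds the 2-day level at least 1.5-fold above the 8-day level in every member, so a large share of the drop after day 2 is built in.

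The 2-day level was under the light level in 20 of the 28 transcripts (71.4%, exact binomial interval 51.3% to 86.8%), against 48.4% of all transcripts. After 1 day 17 were under light (60.7%), against 46.5% of all. At 2 days 18 were lower than at 1 day (64.3%), against 52.6% of all, and 10 were lower at both steps, from light to 1 day and from 1 to 2 days (35.7%), against 16.7% of all. These intervals treat transcripts as independent, which they are not, since all come from the same libraries.

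Counting error was small enough in 13 members for the 2-day level to lie under light with an interval wholly under 1 (46.4%), against 12.4% of all transcripts. In 3 members the interval lay wholly above 1 (10.7%), against 12.9%. After 1 day 7 of the 28 had an interval wholly under 1 relative to light, against 11.4% of all, and from 1 to 2 days 13 had one (46.4%), against 11.9%. Abundant transcripts have narrower intervals and the members are more abundant than the rest, which can raise these shares. A 2-day level at least 1.5-fold under light was found in 3 members (10.7%), against 0.169% of all, and a 1-day level in 2 (7.14%), against 0.127%.

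**Figure D4:**
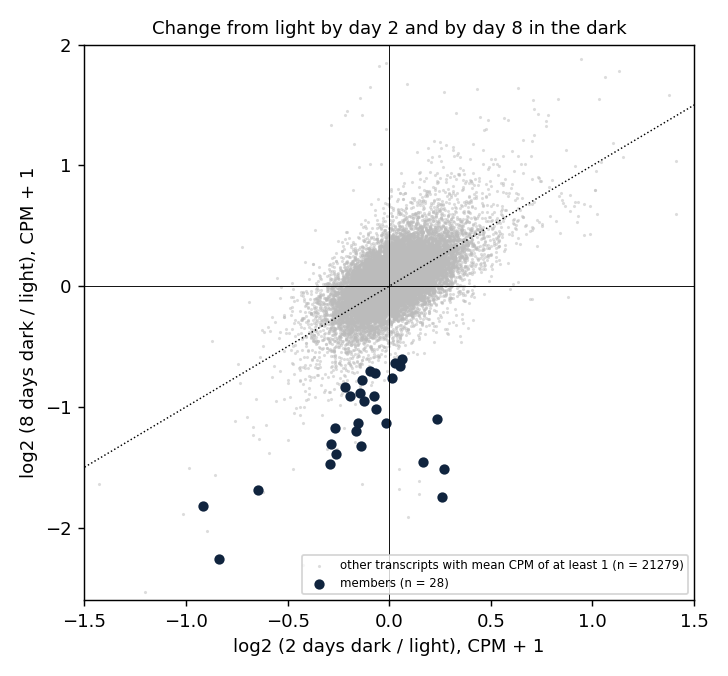
Log2 ratio of (CPM + 1) of the 2-day dark library to light (horizontal) and of the 8-day dark library to light (vertical), for the 28 members (dark) and the other transcripts averaging 1 CPM or more (grey); the dotted line marks equal change, and 29 transcripts lie outside the axes. Of the members, 20 lie left of 0 on the horizontal axis and 3 lie at or beyond 1.5-fold lower, while all 28 lie under the dotted line because the rule puts the 8-day level under the 2-day level.

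Choosing on the light library favours transcripts that happened to be high in it, and choosing on the 2-day library removes those already low by then. The same measures were therefore read in sets chosen without the libraries compared, each of which contains the 28. In 62 transcripts chosen on the dark control and the 1-day library alone, 40 were lower at 2 days than in light (64.5%), with a median log2 ratio of -0.09. In 48 chosen on the dark control and the 2-day library, 26 were lower at 1 day than in light (54.2%), with a median of -0.02. In 51 chosen on the dark control and light, 36 were lower at 2 days than at 1 day (70.6%), with a median of -0.06. Only the 62 compare 2 days with light. Their share had an interval of 51.3% to 76.3%, against 48.4% of all transcripts, and their median one of -0.13 to -0.01. For 2 days against 1 day the share over all transcripts was 52.6%. These differences were small in size, and since each set holds the 28, the sets are no separate support. The share lower at 1 day was closer to the 46.5% of all transcripts.

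The 51 transcripts chosen on the dark control and light with no condition on days 1 and 2 also show how many stood near their 8-day level early. In 20 of them (39.2%) the 2-day library was less than 1.5 times the 8-day library. In 15 (29.4%) the 1-day library was less than 1.5 times the 8-day library. In 12 both were, in 8 only the 2-day library and in 3 only the 1-day library. Among all transcripts the 8-day library was at least 1.5-fold under the 2-day library for only 0.526%. It was so under the 1-day library for 1.13%. Early levels less than 1.5 times the 8-day level were thus more frequent among all transcripts than in the 51. No 2-day level was under the 8-day level (0 of 51). The 51 were chosen for a low 8-day level, which makes a still lower 2-day level unlikely, so this count is no result about the course. A level near that of day 8 need not be a fall from light. At 2 days 42 of the 51 (82.4%) were under light, and 4 (7.84%) were at least 1.5-fold under it. Among all transcripts these shares were 48.4% and 0.169%. Over the 51 the median log2 ratio from light to 2 days was -0.19, and a median of 21.1% of the drop to 8 days was present by then. The 51 were chosen on the light library, which favours transcripts that happened to be high in it. In the 62 chosen without light and day 2 the median log2 ratio was -0.09.

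The members at least 1.5-fold under light by day 2 were 3 transcripts that differ in course. SmedASXL_053138 had 1.58 CPM in the dark control, 3.49 CPM in light, 1.38 CPM at 1 day, 1.38 CPM at 2 days and 0.271 CPM at 8 days. SmedASXL_004406 had 6.10 CPM in the dark control, 12.8 CPM in light, 6.71 CPM at 1 day, 7.85 CPM at 2 days and 3.29 CPM at 8 days. Both stood above the control in light, came near it within 1 day, and ended under it at 8 days, whereas SmedASXL_005900 was lower at each time, with its largest step after day 2.

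At 2 days SmedASXL_053138 was 2.53-fold under light (1.88 to 3.43), with 69 reads at 2 days and 134 in light, and its 13 reads at 8 days put it 5.09-fold under day 2 (2.79 to 10.04). SmedASXL_004406 was 1.64-fold under light at 2 days (1.43 to 1.87) and 2.39-fold lower at 8 days than at 2 days (1.98 to 2.89). SmedASXL_005900 was 1.99-fold under light at 2 days (1.66 to 2.40). These 3 have means of 1.62, 7.36 and 4.66 CPM, and none of the 6 members with a mean of at least 100 CPM was 1.5-fold under light by day 2. A drop of that size was found in only 0.169% of all transcripts. Of those 6, 5 were under light at 2 days by a smaller margin, with counting intervals wholly under 1. Among the 7 members under 5 CPM, where intervals are wider, 2 had such an interval.

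The opposite early course was seen in the pair with the highest ratio of day 2 to light. SmedASXL_001082 had 6.93 CPM in the dark control, 10.53 CPM in light, 13.3 CPM at 1 day, 12.9 CPM at 2 days and 3.04 CPM at 8 days. SmedASXL_006851 had 58.0 CPM in the dark control, 93.9 CPM in light, 102 CPM at 1 day, 113 CPM at 2 days and 27.3 CPM at 8 days. Both were above the control in light, stood higher still in the first days of dark return and were under the control at 8 days.

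At day 8 the level of SmedASXL_001082 was 4.24-fold under day 2 (3.54 to 5.11) and that of SmedASXL_006851 was 4.13-fold under it (3.88 to 4.39). At 2 days they stood 1.22-fold (1.08 to 1.39) and 1.201-fold (1.15 to 1.252) above light. The ratio of their CPM stayed between 0.111 and 0.130 over the 5 libraries.

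The members also differed in their level in light relative to the dark control, within the limits the rule sets on that ratio. In light 15 of the 28 were under the dark control (53.6%), against 45.8% of all transcripts. A level at least 1.5-fold under the control was found in 6 (21.4%), against 5.34% of all, and one at least 1.5-fold above it in 5 (17.9%), against 3.49%. The remaining 17 were within 1.5-fold. The dark control was the highest of the 5 libraries in 14 members, light in 8, the 1-day library in 3 and the 2-day library in 3. The lowest of the other 4 libraries was the control in 11 members, the 2-day library in 11, light in 4 and the 1-day library in 2. Shares over all transcripts are not given for these counts, so they are not read as a trait of the members. By the 1.5-fold margin the dark control was highest for 376 of all transcripts and lowest for 243, more than any other library.

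The 6 members at least 1.5-fold lower in light were lower again at 8 days. SmedASXL_018682 had 529 CPM in the dark control, 276 CPM in light, 274 CPM at 1 day, 251 CPM at 2 days and 160 CPM at 8 days. SmedASXL_078948 had 29.9 CPM in the dark control, 15.8 CPM in light, 15.2 CPM at 1 day, 13.5 CPM at 2 days and 8.42 CPM at 8 days. They had the lowest light-to-control ratios of the 28. At 2 days SmedASXL_018682 was 1.098-fold under light (1.07 to 1.13) and SmedASXL_078948 was 1.17-fold under it (1.05 to 1.31), and both were lower again at 8 days.

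In light SmedASXL_018682 was 1.92-fold under the control (1.87 to 1.96) and SmedASXL_078948 was 1.89-fold under it (1.72 to 2.08). At 8 days they were 1.57-fold (1.52 to 1.61) and 1.603-fold (1.41 to 1.82) under the 2-day level, and 3.30-fold and 3.55-fold under the control. The ratio of their CPM stayed between 17.5 and 19.0, the steadiest of the 378 pairs of members and the only one within 1.1-fold over the 5 libraries. Whether these contigs share reads was not tested. Over the 6 the median log2 ratio of CPM + 1 at 8 days was -1.72 to the control, -0.81 to light and -0.72 to day 2.

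The 5 members at least 1.5-fold higher in light than in the control took a larger drop from light. Their median log2 ratio at 8 days was -1.69 to light, -1.04 to day 2 and -0.76 to the control, and 4 of the 5 were under light by day 2. In the 17 members with light within 1.5-fold of the control the medians were -1.02 to light, -0.90 to day 2 and -0.87 to the control, and 12 were under light by day 2. The rule needs a level at 8 days under both control and light, so a member that is higher in light has to drop further from light by construction.

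A level course followed by a late drop, with the 4 other libraries within 1.2-fold of each other on the CPM + 1 scale, was seen in 4 of the 28 or 14.3% (SmedASXL_006601, SmedASXL_006722, SmedASXL_051528 and SmedASXL_011854). The limit of 1.2-fold was chosen after the values had been seen. Their other libraries differed by 1.04- to 1.12-fold, and the 8-day library was 1.52- to 1.75-fold under the lowest of them. In 12 members (42.9%) the other libraries were within 1.5-fold of each other. Among all 21307 transcripts the same 4 libraries were within 1.2-fold for 41.2% and within 1.5-fold for 88.7%, and the difference from the members was not tested.

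Low transcripts showed larger ratios of CPM than abundant ones, partly because the added 1 CPM requires it. For the 7 members with a mean under 5 CPM, the 8-day level was a median of 3.38-fold under the lowest other library, with a range of 1.95- to 5.67-fold. For the 15 with a mean of 5 to 100 CPM the median was 1.74-fold, and for the 6 with at least 100 CPM it was 1.63-fold, ranging from 1.56- to 1.98-fold. The fewest reads of a member in any library were 11, for SmedASXL_006360 at 8 days. That transcript had 1.90 CPM in the dark control, 1.77 CPM in light, 1.31 CPM at 1 day, 1.30 CPM at 2 days and 0.229 CPM at 8 days, and it was the least abundant of the 28.

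The thresholds of the rule cut through a continuous range. SmedASXL_011719, the last inside the 1.5-fold limit at 1.515, had 35.6 CPM in the dark control, 43.6 CPM in light, 39.4 CPM at 1 day, 39.4 CPM at 2 days and 23.1 CPM at 8 days. SmedASXL_008154, just outside at 1.498, had 293 CPM in the dark control, 181 CPM in light, 182 CPM at 1 day, 184 CPM at 2 days and 120 CPM at 8 days. In all, 9 members had a ratio under 1.6 and 23 transcripts were just outside with a ratio of at least 1.4. The filter on the mean removed 0 transcripts that met the other conditions. The limits on the control-to-light ratio removed 3, with ratios of 0.495 for SmedASXL_004381, 2.07 for SmedASXL_019168 and 2.86 for SmedASXL_009670. The nearest members inside these limits were SmedASXL_004406 at 0.512 and SmedASXL_018682 at 1.92.

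With the rule turned round, 8 transcripts were highest only after 8 days in the dark. The 28 were more abundant than these 8, with a median of the mean CPM of 24.4 against 4.59 CPM and a range of 1.30 to 3188 against 2.22 to 18.3 CPM. Of the 8, all were above light by day 2, where 48.4% of all transcripts were under it. In 5 of the 8 (62.5%) the counting interval lay wholly above 1, against 12.9% of all. The turned rule favours transcripts that happened to be low in light, which can raise these counts. The median log2 ratio of the 8 from light to 2 days was 0.31, and 1.15 from light to 8 days. Among the 28 the sizes at 2 and 8 days were -0.13 and -1.11. The 2 sets share all 5 libraries, and the difference between them was not tested.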

How the data were processed

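Per the labels' protocols and the design text, libraries were made from poly(A)-selected RNA and sequenced from 1 end over 50 bases. Per the design text, 15 bases were trimmed at the 3' end and reads aligned with bowtie2 to SmedASXL contigs. The submitters' processing notes list bcl2fastq 1.8.3 and Bowtie2 2.2.4. The counting of reads with several matches and any use of strand are not given in the sources used here. The sample treatment text describes another experiment and was not used; groups come from the titles.

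Per the file headers the authors deposited CPM + 1, a score whose column sum passes 1000000 because of the added 1, and 1 was subtracted here. The authors also deposited a ratio of dark control to light on that scale. Whole reads were computed from the CPM, and 100% of values above 0 were whole within 0.001 reads. A count of 0 allows up to 0.0599 to 0.0780 CPM (3 reads). Ratios of CPM have exact conditional binomial (Clopper-Pearson) intervals; medians have order-statistic intervals. Columns of per-sample values left unused numbered 0. Calculations used Python 3.11.15, numpy 2.4.6, pandas 2.3.3 and scipy 1.17.1, and were tested on simulated data. Alternatives were pseudocounts, filters on the mean, folds, limits on the control-to-light ratio, 2 scalings and rules without each library.

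The members, lists and comparisons were chosen with earlier results of these data known. Transcripts named are, by ratios of CPM + 1, the 2 with the largest drop, the 2 most abundant, the 2 at each end of day 2 to light and of light to control, and those nearest each threshold. Lists of marker genes could not be applied without gene names.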

Additional observations from a re-analysis of the deposited data

Results flagged for a closer look

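In 3 members the level was above light at 2 days, past counting error, and under it at 8 days in the dark. The rule fixes the lower 8-day level in all 28. The 3 are 10.7% of the members, against 12.9% of all transcripts that were above light at 2 days by the same measure, so they are no more frequent than in the background. The difference between the times was not tested across animals, since each condition is 1 library. For SmedASXL_006851 the ratio of CPM to light was 1.201 at 2 days and 0.291 at 8 days (0.273 to 0.310). For SmedASXL_001082 it was 1.22 at 2 days and 0.289 at 8 days (0.237 to 0.350). For SmedASXL_018718 it was 1.19 at 2 days (1.09 to 1.29) and 0.445 at 8 days (0.399 to 0.496). The first 2 were at least 1.4-fold higher in light than in the dark control, and the third was picked out here only for this pattern, after its values were seen.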

How the results depend on the processing

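Of the 28 members, 14 were kept under both pseudocounts and both scalings tried. The number of members was 49 and of mirror transcripts 15 with a pseudocount of 0.1 CPM, where the members' median level was 5.48 CPM, and 16 and 3 with 5 CPM, where it was 54.2 CPM. It was 133 and 101 at a fold midway between 1 and 1.5 and 3 and 2 at 2-fold, where the median log2 ratio of 2 days to light was -0.26. A mean of at least 10 CPM left 18 and 2, and one of at least 5 CPM left 4 mirror transcripts. Limits of 1.5-fold on the control-to-light ratio left 17 and 5. Rules without the dark control gave 68 and 120, without light 14 mirror transcripts, and, chosen after seeing the data, without days 1 and 2 51 and 32, and without light and day 2 62 and 25. With trimmed-mean-of-M-values and median-of-ratios scaling the members numbered 35 and 33, and both hold all 28.

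The 3 members at least 1.5-fold lower at 2 days than in light became 0 with a pseudocount of 5 CPM or a mean of at least 10 CPM, 1 with a mean of at least 5 CPM, at 2-fold or with the narrower limits, and 11 without the dark control. The cause was not tested. The share lower at 2 days than in light was 58.3% in the 36 chosen without light and 77.8% in the 36 chosen without day 2. No paired analysis was possible because each condition has 1 library. For the 12 members named by rule, the log2 ratio of CPM of 8 days to the lowest other library lay outside its counting interval for 0 with 0.1 CPM added, for 3 with 1 CPM, for 8 with 5 CPM and in 4 of 24 values under the 2 scalings. Depth limits members under 5 CPM most.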

Other observations

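Transcript numbers of the 28 were not spread evenly, and neither were those of all transcripts. The pattern was chosen after the values had been seen. SmedASXL_018682, SmedASXL_018718, SmedASXL_018729 and SmedASXL_018751 lie within 70 consecutive numbers, a stretch that holds 61 of the 21307 transcripts that averaged 1 CPM or more. Numbers under 20000 were carried by 23 of the 28 (82.1%), against 68.9% of all. That difference was not tested, and the transcripts compared were not matched for level. No source used here says what the order of the numbers stands for. Of the 4, 3 were highest in the dark control. SmedASXL_018682 had 276 CPM in light against 529 CPM in the control, SmedASXL_018729 had 158 CPM in light against 276 CPM in the control, and SmedASXL_018751 had 77.0 CPM in light against 98.3 CPM in the control. The other one, SmedASXL_018718, was highest at 2 days with 29.3 CPM, above its 19.2 CPM in the control.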
